A study of Mus musculus with 8 samples.

Results

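Glucose-starved mouse embryonic fibroblasts that carried Pontin RA were compared with glucose-starved fibroblasts that carried Pontin WT, in the 4 starved libraries of a series of 8 RNA-seq libraries. The 4 were taken by their labels, 2 of starved WT and 2 of starved RA, and the 4 libraries in normal medium gave the same comparison without starvation. All cells came from Pontin f/f embryonic fibroblasts immortalised by the 3T3 protocol, stably expressed Flag-tagged Pontin from a lentivirus under hygromycin selection, and had lost endogenous Pontin through a Cre virus. WT and RA cells differed by the form of Pontin added back: RA carries R333A and R339A, so that both arginines are alanines. Starved cells were kept in glucose-free medium with dialysed serum, and how long the RNA-seq cultures were starved is not given in the sources used here. One stable line stood for each form, so the line and the form of Pontin cannot be told apart. The sources do not say that the 2 replicates were separate cultures, so p-values measure only the spread between these samples, which may be technical. Values are CPM as deposited, differences are RA minus WT on the log2(CPM + 1) scale, which understates the change of low genes, and a gene was called at a limma p under 0.05 after Benjamini-Hochberg adjustment over all 16232 genes tested. In bulk RNA, fewer cells of a kind and less RNA per cell cannot be told apart.

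Pontin, the product of Ruvbl1, is an AAA+ ATPase that works with its partner Reptin (Ruvbl2) in chromatin complexes such as TIP60, INO80 and SRCAP and in the R2TP chaperone complex. Cells without glucose turn down growth and lipid synthesis and turn up autophagy, lysosome and stress genes, in part through TFEB and its relatives, FOXO factors, ATF4 and CHOP. The Ruvbl1 stretch below, from GENCODE M21 on GRCm38 (chr6:88485883-88491525, + strand, exons 8 and 9 of 11, the intron left out), is shown because it holds the changed codons, in capitals. Both reference codons read arginine.
Ruvbl1 codons 330 to 342: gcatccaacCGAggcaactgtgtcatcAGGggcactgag
Ruvbl1 stood at 27.9 and 28.4 CPM in starved WT and at 45.05 and 42.9 in starved RA, and at 28.4 and 27.6 in normal WT against 36.8 and 32.0 in normal RA. The starved groups did not overlap (difference 0.62, SE 0.065, adjusted p = 2.9e-07), which held for 13225 of the 16232 genes tested. The reads of Ruvbl1 were not split into added and endogenous copies. Ruvbl2 stood at 70.3 and 69.3 in starved WT and at 78.0 and 73.0 in starved RA (difference 0.11, adjusted p = 0.049), a call that was lost in 10 of the other fits tried.

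Under starvation 5005 genes were higher in RA (30.8% of those tested) and 5206 were lower (32.1%). Higher genes were 49.0% of all calls, a share of 51.9%, 46.9% and 40.6% with scaling to total reads, by median ratio and by quantiles (4207 higher and 6155 lower with quantiles). At least 2-fold, 885 genes were higher (5.45%) and 203 were lower (1.25%), and at least 4-fold 233 were higher and 7 lower. Beyond 8-fold there were 98 higher genes and no lower ones, and beyond 32-fold 12 higher genes. The median difference over all tested genes was -0.0081. Members of the interferon and MHC class I lists made up 74 of the 885 genes, 43 of the 98 and 10 of the 12. Genes of any of the 36 lists described here were 147 of the 885 (16.6%) and 15 of the 203 (7.39%), beside 5.75% of all tested genes.

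**Figure D1:**
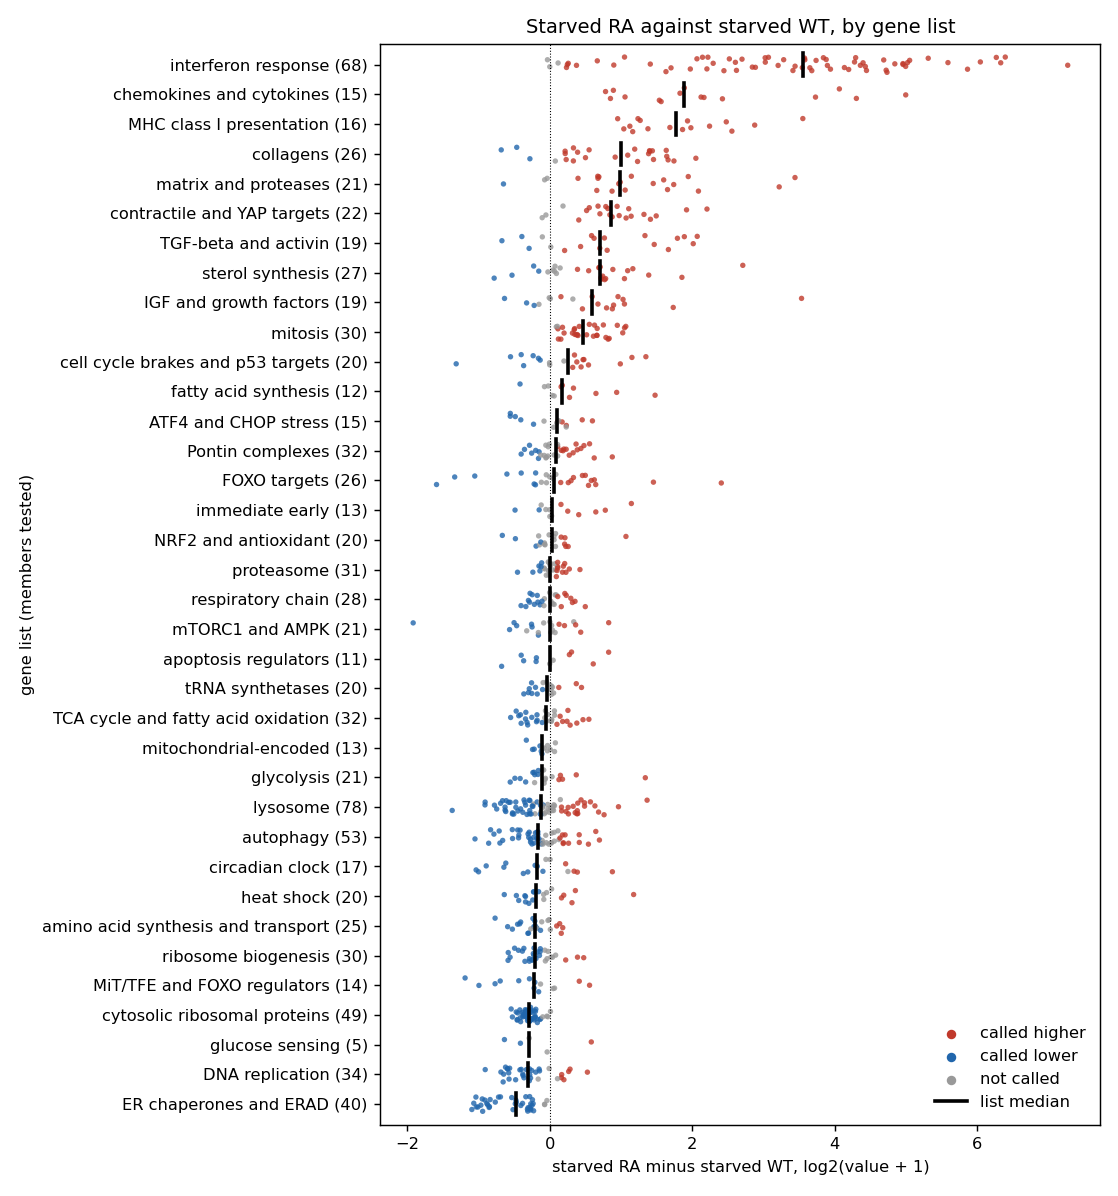
Difference between starved RA and starved WT on the log2(CPM + 1) scale (x axis) for every tested member (points) of the 36 gene lists (y axis, with the number of members tested), with the list median as a black bar. The lists run from the interferon response (median 3.56) at the top to ER chaperones and ERAD (median -0.48) at the bottom.

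The clearest difference was in interferon-stimulated genes, which encode antiviral effectors switched on through interferon-stimulated response elements in their promoters. Of 68 members tested, 65 were higher in starved RA and 0 were lower, with a median difference of 3.56. The median member stood at 5.32 CPM in starved WT and at 73.5 in starved RA, beside 28.4 in normal WT and 57.3 in normal RA. The core of the response element, GAAANNGAA on either strand, was in the promoters of 27 of the 52 members found in the promoter table (51.9%). It was in 8.56% of all 32851 promoters of 300 bases there (RefSeq, GRCm38.p6), in 8.8% of matched tested genes and in 113 of 573 genes at least 2-fold higher (19.7%). It was in 11 of 129 matched genes at least 2-fold lower (8.53%). The core was not particular to higher lists, as 10 of 38 matched cytosolic ribosomal protein genes held it (26.3%). A gene counted when any of its promoters held the motif, and a match is a description of letters, not a site shown to be bound. The promoters of Ifit3, Ifit1, Isg15 and Rsad2, antiviral genes among the highest in starved RA, are shown by a stretch of 100 bases each with every copy in capitals, overlapping copies run together.
Ifit3, chr19:34583355-34583454, + strand: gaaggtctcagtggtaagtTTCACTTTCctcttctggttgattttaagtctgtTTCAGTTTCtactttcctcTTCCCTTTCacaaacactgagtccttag
Ifit1, chr19:34640747-34640846, + strand: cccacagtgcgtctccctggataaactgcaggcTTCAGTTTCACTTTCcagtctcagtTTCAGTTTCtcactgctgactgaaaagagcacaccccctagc
Isg15, chr4:156200837-156200936, - strand: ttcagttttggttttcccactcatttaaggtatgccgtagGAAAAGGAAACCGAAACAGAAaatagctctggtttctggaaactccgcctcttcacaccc
Rsad2, chr12:26456518-26456617, - strand: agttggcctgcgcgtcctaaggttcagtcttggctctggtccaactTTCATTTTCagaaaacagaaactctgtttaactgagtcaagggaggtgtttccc

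Ifit3, whose product binds foreign RNA together with other IFIT proteins, stood at 3.23 and 3.34 CPM in starved WT and at 659 and 665 in starved RA. This was the highest difference of all tested genes (7.27, SE 0.041, adjusted p = 6.9e-24, 201-fold on the CPM means). Ifit1, from the same family, stood at 3.48 and 3.29 in starved WT and at 370 and 366 in starved RA (difference 6.40). Rsad2, the antiviral enzyme viperin, stood at 1.38 and 0.694 against 160 and 162 (6.33). No RA value came near a WT value in these genes. Ifit3b, Oasl2, Cmpk2, Ifi44, Gbp3 and Tgtp1 also belonged to the 10 highest differences among genes with a mean of at least 10 CPM in the starved libraries, with differences of 6.999, 6.27, 6.05, 5.87, 5.59 and 5.31. The tenth, Olfr56 (5.71), spans the interferon-induced gene Ifi47 in GENCODE M21 and shares 111 exon bases with it. Ifit3 and Ifit3b are near-identical copies between which reads may be split.

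The rest of the pathway was described by role. All 18 Ifit genes and effectors, 11 GTPases, 12 sensors and 10 PARPs were higher, as were all 5 genes of the ISG15 system and 9 of 12 signalling genes. Isg15, the ubiquitin-like modifier, stood at 12.4 and 11.1 in starved WT and at 424 and 403 in starved RA (difference 5.02). Usp18, which removes ISG15, stood at 9.14 and 8.95 against 291 and 284 (4.85). Among the transcription factors, Irf7 stood at 5.20 and 6.03 against 211 and 198 (4.96). Stat2 and Irf9 differed by 3.21 and 2.22. The RNA sensors Ddx58 (RIG-I) and Ifih1 (MDA5) differed by 3.74 and 3.68, and the GTPase Gbp2 by 4.73. Mavs, the adaptor of both sensors, stood at 18.1 and 15.6 against 19.6 and 20.4 (0.23, adjusted p = 0.022), the lowest called difference of the list, and that call was lost in 5 other fits.

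Ifnb1, which encodes interferon beta, was low in every library. It stood at 0.21 and 0.219 CPM in starved WT and at 4.58 and 3.63 in starved RA, and at 0.739 and 0.726 in normal WT against 2.07 and 2.29 in normal RA. The starved groups did not overlap (difference 2.07, SE 0.135, adjusted p = 8.3e-10), as in 13225 of the 16232 genes tested.

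Antigen presentation and secreted signals were higher as well. MHC class I presentation, which loads peptides from the immunoproteasome onto class I molecules, was higher for all 16 members (median 1.78). The heavy chain H2-K1 stood at 73.5 and 77.0 in starved WT and at 248 and 240 in starved RA (difference 1.69). B2m, the light chain, stood at 597 and 624 against 1453 and 1430 (1.24). The peptide transporter Tap1 stood at 3.44 and 2.41 against 46.4 and 43.0 (3.55), and the immunoproteasome subunits Psmb8, Psmb9 and Psmb10 differed by 2.48, 1.98 and 1.04. Of 21 chemokines and cytokines listed, 15 had enough reads to be tested, and all 15 were higher (median 1.89). Cxcl10, an interferon-induced T cell attractant, stood at 6.08 and 5.19 against 212 and 209 (4.998). Ccl2, a monocyte attractant, stood at 11.0 and 9.68 against 226 and 220 (4.31). Ccl5, Il6 and Cxcl12 differed by 2.42, 1.89 and 0.78. In each of these genes both RA libraries lay above both WT libraries. The starved groups lay apart, in either direction, in 13225 of the 16232 genes tested.

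**Figure D2:**
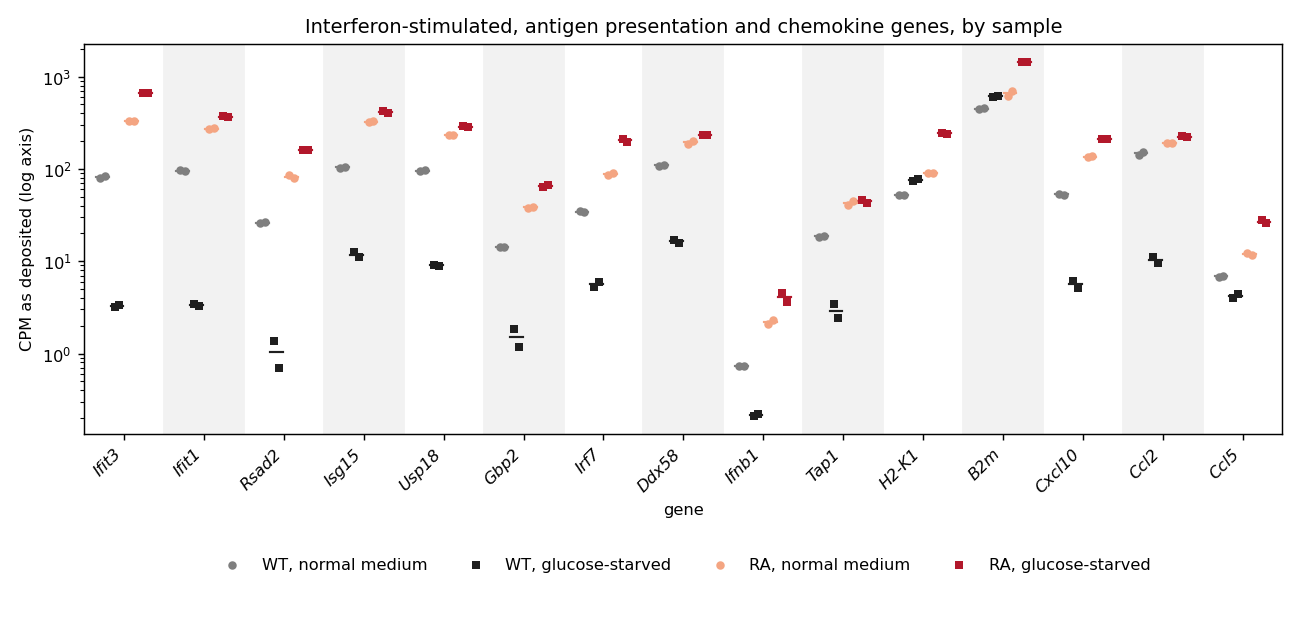
CPM as deposited (y axis, log scale) of 15 interferon-stimulated, antigen presentation and chemokine genes (x axis) in each of the 8 libraries, with a short line at each group's mean. Starved WT is the lowest group for most genes (Ifit3 at 3.23 and 3.34) and starved RA is the highest or level with normal RA (Ifit3 at 659 and 665).

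Matrix, contractile and growth factor genes formed the next set of programs. Of 26 collagen genes tested 22 were higher and 3 lower (median 1.01), and the 7 fibrillar and 9 network collagens were higher without exception. Col1a1, a chain of type I collagen, stood at 211 and 198 in starved WT and at 637 and 642 in starved RA (difference 1.64, adjusted p = 9.5e-16). In normal medium it stood at 1678 and 1697 in WT and at 1555 and 1585 in RA. Starved RA thus lay between starved WT and both normal groups. Col1a2, Col3a1 and Col5a3 differed by 1.74, 1.46 and 2.05, and the cross-linking enzyme Lox by 0.92. The prolyl hydroxylase P4ha1 went the other way, from 351 and 346 to 217 and 217 (-0.68).

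Of 21 matrix and protease genes 18 were higher and 1 lower (median 0.99). Thbs1, a secreted activator of TGF-beta, stood at 101 and 95.1 in starved WT and at 1075 and 1079 in starved RA (difference 3.44, 11.0-fold). Fn1 and Mmp2 differed by 0.40 and 0.66. Postn was the lower one, at 319 and 312 against 201 and 201 (-0.65).

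Contractile genes and targets of YAP, the mechanosensitive coactivator, were higher for 19 of 22 members and lower for 0 (median 0.86). All 7 YAP targets rose. Ankrd1 stood at 138 and 139 in starved WT and at 641 and 646 in starved RA (2.21), Ctgf at 219 and 223 against 842 and 833 (1.92), and Cyr61 at 264 and 278 against 677 and 682 (1.32). Smooth muscle actin, Acta2, stood at 1323 and 1373 against 3865 and 3734 (1.49). Tagln, of the same contractile program, stood at 1467 and 1516 against 1453 and 1418 and was not called (-0.05, adjusted p = 0.24).

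Among 19 TGF-beta and activin genes 14 were higher and 3 lower (median 0.70). The activin subunit Inhba stood at 26.2 and 21.0 against 67.0 and 66.1 (1.47), and its antagonist Fst at 3.10 and 3.22 against 15.9 and 17.1 (2.07). The BMP antagonist Grem1 stood at 495 and 486 against 1828 and 1810 (1.89). The receptor Tgfbr1 was lower (-0.67), as was the inhibitory Smad7 (-0.39), and the ligand Tgfb2 stood at 8.78 and 9.19 against 8.36 and 9.85. Growth factor and IGF genes were higher for 12 of 19 and lower for 3 (median 0.59). Fgf7, the keratinocyte growth factor, stood at 10.1 and 12.5 against 143 and 139 (3.53), and Angptl6 at 159 and 163 against 104 and 102 (-0.64).

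**Figure D3:**
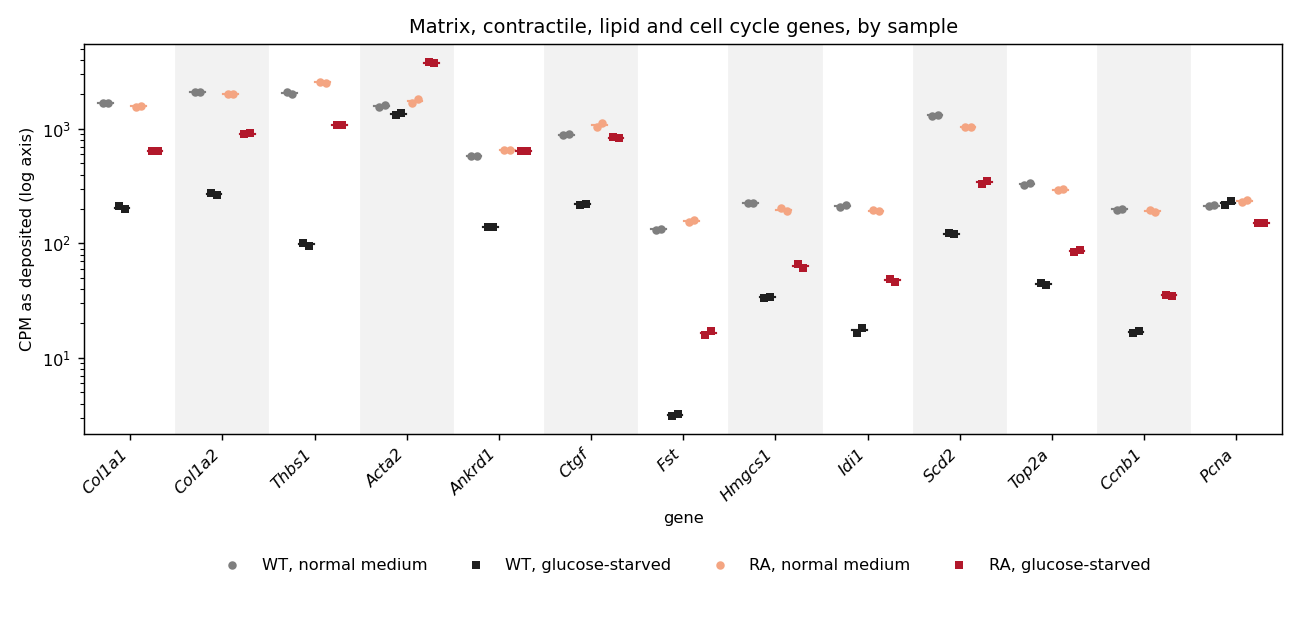
CPM as deposited (y axis, log scale) of 13 matrix, contractile, lipid and cell cycle genes (x axis) in each of the 8 libraries, with a short line at each group's mean. For Col1a1, Idi1 and Top2a starved RA lies between starved WT and the normal groups, and for Pcna it lies below starved WT.

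Sterol genes were higher in starved RA. SREBP2 drives the enzymes of cholesterol synthesis when membrane sterol is low. Of 27 members 17 were higher and 4 lower, with a median difference of 0.70. Idi1, which isomerises isopentenyl diphosphate, stood at 16.6 and 18.4 in starved WT and at 48.5 and 46.5 in starved RA (1.39, SE 0.050, adjusted p = 2.2e-13). Both normal groups were higher still, at 208 and 216 in WT and 196 and 191 in RA. Sqle, squalene epoxidase, stood at 45.03 and 48.8 against 97.6 and 98.3 (1.05). The early enzyme Hmgcs1 differed by 0.89. Insig1 stood at 32.1 and 33.2 against 32.8 and 34.5 and was not called (adjusted p = 0.48), and Ebp was lower (-0.78). Of 12 fatty acid synthesis genes 7 were higher and 1 lower (median 0.17). The desaturase Scd2 stood at 123 and 121 against 333.2 and 350.7 (1.48), and Fasn, fatty acid synthase, the lower one, stood at 244 and 225 against 177 and 173 (-0.42). The sterol response element core TCACNCCAC, searched on either strand, was in 1 of 19 matched sterol genes, in 1.37% of matched tested genes and in 1.24% of all promoters. That gene was Hmgcs1, shown with the motif in capitals.
Hmgcs1, chr13:119690168-119690267, + strand: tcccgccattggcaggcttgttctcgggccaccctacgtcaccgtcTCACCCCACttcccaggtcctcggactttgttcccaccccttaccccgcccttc

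The cell cycle lists moved in opposite directions. Of 30 mitosis genes 28 were higher and 0 lower (median 0.47), and of 34 DNA replication genes 6 were higher and 25 lower (median -0.31). Cyclin B1, Ccnb1, stood at 16.4 and 17.2 in starved WT and at 35.4 and 35.0 in starved RA (difference 1.02). Top2a, the mitotic topoisomerase, stood at 45.2 and 43.2 against 84.8 and 87.4 (0.95). Cenpa, Plk1 and Cdk1 differed by 1.07, 1.05 and 0.66. Mki67 stood at 31.3 and 28.2 against 30.9 and 32.5, groups that overlapped. All these were far below normal medium, where Ccnb1 stood at 195 and 201 in WT and at 195 and 190 in RA.

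Replication genes were lower by less. Pcna, the polymerase clamp, stood at 215 and 234 in starved WT and at 151 and 150 in starved RA (-0.57). The helicase subunit Mcm2 and the factor E2f1 differed by -0.20 and -0.38. Thymidine kinase, Tk1, went the other way (0.53). Cell cycle brakes and p53 targets were mixed, with 10 of 20 higher and 7 lower (50% and 35%, beside 30.8% and 32.1% of all tested genes). Cdkn2b (p15) was higher by 1.35 and Cdkn1a (p21) by 0.47, whereas Mdm2 and Trp53inp1 were lower (-0.55 and -1.31).

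Lysosome and autophagy lists had more lower than higher genes in starved RA, with medians nearer 0 than those of the ER, DNA replication and ribosomal protein lists. TFEB, TFE3 and MITF, the MiT/TFE factors, switch on lysosome and autophagy genes through CLEAR elements when nutrients are short, and FLCN with the Rag GTPases holds them in check. Of 78 lysosome genes 20 were higher and 37 lower, with a median difference of -0.12, and of 53 autophagy genes 11 were higher and 29 lower (median -0.17). The shares higher and lower were 25.6% and 47.4% for lysosome and 20.8% and 54.7% for autophagy genes. All tested genes gave 30.8% and 32.1%. Nearly all differences in both lists were under 2-fold: 1 lysosome gene was at least 2-fold lower and 1 higher, and 1 autophagy gene was at least 2-fold lower and 0 higher. Of all tested genes 1.25% were at least 2-fold lower and 5.45% higher. The CLEAR core TCACGTGA was in the promoters of 9 of 59 matched lysosome genes (15.3%) and 2 of 44 matched autophagy genes (4.55%), beside 2.13% of matched tested genes and 0.974% of all promoters. Mcoln1 is shown as a lysosome gene with the motif, in capitals.
Mcoln1, chr8:3500427-3500526, + strand: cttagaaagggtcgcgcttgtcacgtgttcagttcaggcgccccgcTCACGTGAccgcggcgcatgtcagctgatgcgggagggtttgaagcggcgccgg

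Ctns, the cystine exporter of the lysosome, stood at 70.6 and 72.7 CPM in starved WT and at 27.2 and 27.0 in starved RA (difference -1.37, SE 0.071, adjusted p = 3.7e-11). In normal medium it stood at 8.31 and 7.98 in WT and at 7.61 and 6.96 in RA. Mcoln1, the lysosomal calcium channel, stood at 247 and 241 against 129 and 130 (-0.91). For both genes the starved RA libraries lay below starved WT and above all normal libraries. The V-ATPase, which acidifies lysosomes, was the most one-sided role, with 12 of 16 subunits lower and 1 higher (median -0.38). Atp6v1a stood at 200 and 195 against 141 and 142 (-0.48). Hydrolases were nearer balance, with 12 of 41 higher and 15 lower (median -0.027). Their shares, 29.3% and 36.6%, were near the 30.8% and 32.1% of all tested genes. Ctsd and Ctsl, cathepsins D and L, differed by -0.38 and -0.10, the call of Ctsl being lost in 8 other fits. Lamp1 stood at 1711 and 1707 against 1647 and 1595 and was not called (adjusted p = 0.10). Gm2a, an activator of ganglioside breakdown, was higher (0.96).

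Autophagy genes were described by step. Initiation genes were lower in 4 of 6 (median -0.37) and ATG8 genes in 4 of 5 (median -0.20), with 1 higher in each. Expansion genes were lower in 10 of 17 and higher in 2 (median -0.15). Fusion genes were lower in 4 of 7 and higher in 2 (median -0.18). Nucleation genes were lower in 2 of 8 and higher in 1 (median -0.077). Those nucleation shares, 25% and 12.5%, stand beside 32.1% and 30.8% of all tested genes. Ulk1, the kinase that starts autophagy, stood at 72.5 and 71.8 in starved WT and at 40.7 and 39.5 in starved RA (-0.83), and its partner Atg13 at 85.1 and 83.5 against 48.7 and 48.3 (-0.78). Atg14, a subunit of the PI3K complex of nucleation, had the lowest difference of the list, at 59.0 and 56.5 against 28.0 and 26.7 (-1.05). Becn1, of the same complex, stood at 118 and 118 against 115 and 113 and was not called (adjusted p = 0.30). Map1lc3b, which encodes LC3B, stood at 223 and 233 against 143 and 136 (-0.70), and Gabarapl1 differed by -0.20. Cargo receptors were split, with 4 of 10 higher and 5 lower. Bnip3, a mitophagy receptor, was lower (-0.86), but Sqstm1, which encodes p62, was higher, at 727 and 752 against 987 and 984 (0.41). Vmp1 was the highest of the list (0.70).

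Regulators of these programs were lower in 9 of 14 and higher in 2 (median -0.22). Flcn, which encodes folliculin, stood at 251 and 248 in starved WT and at 110 and 108 in starved RA (difference -1.19, adjusted p = 3.0e-13), beside 32.8 and 32.0 in normal WT. Rragd, a Rag GTPase and MiT/TFE target, stood at 14.6 and 14.7 against 3.35 and 2.93 (-1.92). It was counted in the mTORC1 and AMPK list, as its lowest member, and not among these 14. Rragc was lower too (-0.57). Foxo3 stood at 38.5 and 34.4 against 20.7 and 21.2 (-0.77), and its deacetylase Sirt1 at 84.4 and 81.9 against 42.0 and 40.4 (-0.995). Foxo1 and the acetyltransferase of the TIP60 complex, Kat5, were higher (0.41 and 0.56), and Carm1, an arginine methyltransferase, was lower (-0.21). Tfeb stood at 1.51 and 1.68 against 1.84 and 1.53 and was not called (adjusted p = 0.75).

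**Figure D4:**
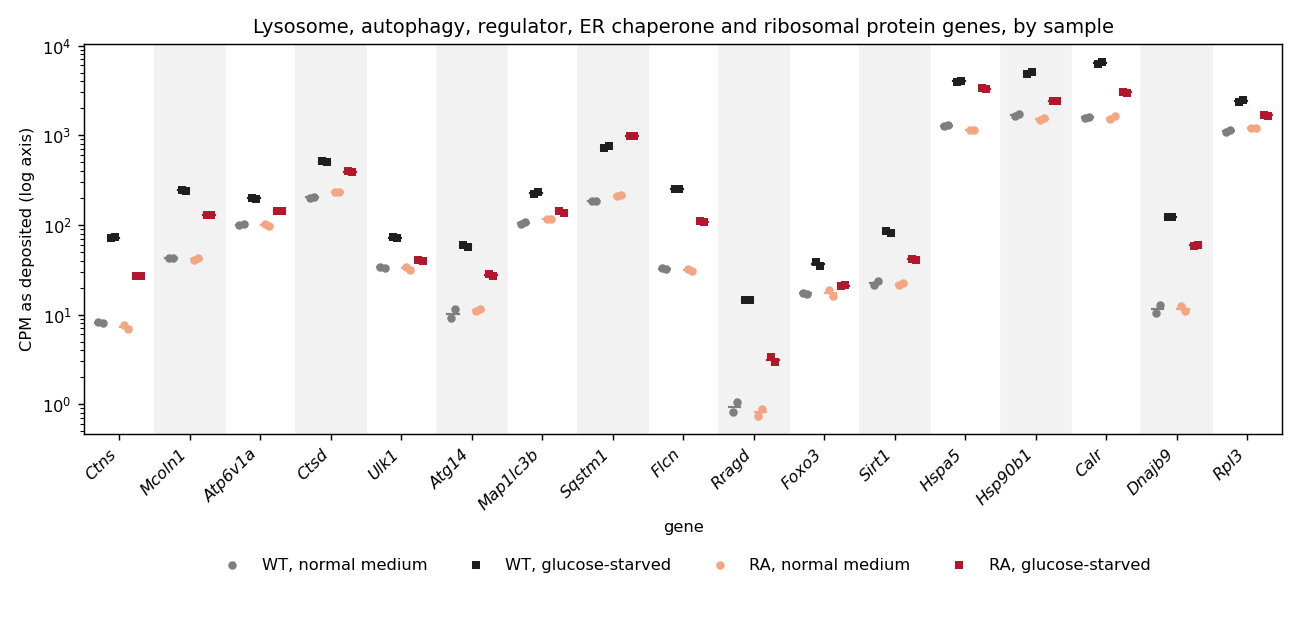
CPM as deposited (y axis, log scale) of 17 lysosome, autophagy, regulator, ER chaperone and ribosomal protein genes (x axis) in each of the 8 libraries, with a short line at each group's mean. For all of them but Sqstm1 the starved RA libraries lie below the starved WT libraries, and above the normal libraries for genes such as Ctns and Calr.

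ER chaperone and ERAD genes, which fold secretory proteins and remove misfolded ones, were lower in 37 of 40 and higher in 0, the lowest list median (-0.48). All 18 chaperones were lower (median -0.90), as were 4 of 5 sensors and 15 of 17 ERAD and transport genes. The element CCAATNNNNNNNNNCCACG, bound by ATF6 and XBP1, was in the promoters of 8 of 33 matched members (24.2%), in 0.155% of matched tested genes and in 0.119% of all promoters. Hspa5 and Hsp90b1 are shown with it in capitals, Hsp90b1 having another copy outside the stretch.
Hspa5, chr2:34771984-34772083, + strand: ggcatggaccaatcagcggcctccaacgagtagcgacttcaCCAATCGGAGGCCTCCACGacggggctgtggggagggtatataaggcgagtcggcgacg
Hsp90b1, chr10:86705493-86705592, - strand: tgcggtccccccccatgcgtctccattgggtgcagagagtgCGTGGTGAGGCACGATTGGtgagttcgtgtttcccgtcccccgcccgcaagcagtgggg

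Calr, the chaperone calreticulin, stood at 6246 and 6604 in starved WT and at 3021 and 2992 in starved RA (difference -1.09, SE 0.051, adjusted p = 8.8e-12). Hsp90b1, which encodes GRP94, stood at 4815 and 5095 against 2396 and 2428 (-1.04). Hspa5, which encodes BiP, differed by less, at 3893 and 4068 against 3338 and 3271 (-0.27). It was also lower in RA in normal medium (-0.15, adjusted p = 0.049), and its interaction was not called (-0.12, adjusted p = 0.12). The co-chaperone Dnajb9 stood at 122 and 121 against 58.4 and 59.7 (-1.03). Herpud1 and Xbp1 each differed by -0.28, close to their difference of -0.26 in normal medium, with interactions of -0.02 that were not called (adjusted p = 0.77 and 0.85). In every gene of this paragraph the starved groups did not overlap, as in 13225 of the 16232 genes tested.

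The ATF4 and CHOP arm of the stress response had 5 of 15 genes higher and 5 lower. These shares, 33.3% each, were close to the 30.8% and 32.1% of all tested genes. Ddit3, which encodes CHOP, stood at 854 and 902 in starved WT and at 664 and 658 in starved RA (-0.41). Atf3 and Nupr1 were lower (-0.56 and -0.49). Atf4 itself stood at 866 and 921 against 1014 and 1000 (0.17), and the pseudokinase gene Trib3 at 221 and 232 against 347 and 340 (0.60). Sesn2 was higher by 0.45. In normal medium 7 of the 15 genes were already higher in RA and 1 lower (median 0.26, beside 0.097 under starvation). Trib3, Sesn2 and Atf4 differed there by 0.36, 0.29 and 0.13, the last not called. The interaction was called for Trib3 (0.24), but not for Sesn2 or Atf4 (adjusted p = 0.11 and 0.61). Atf3 and Nupr1, lower under starvation, were higher in normal medium (0.265 each). The ATF4 and CHOP composite site TGATGNAAT was in 2 of 15 matched genes, in 0.541% of matched tested genes and in 0.965% of all promoters. Amino acid synthesis and transport genes were lower in 15 of 25 and higher in 4 (median -0.20), from Shmt1 at -0.77 to Psat1 at 0.18. Slc7a11, the cystine importer, stood at 36.5 and 36.5 against 36.4 and 37.0. Cytosolic tRNA synthetases were lower in 8 of 20 and higher in 3 (median -0.038), from -0.37 to 0.45.

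Cytosolic ribosomal protein genes were lower in 45 of 49 and higher in 0 (median -0.29, range -0.54 to 0.0090). Their reads were 5.09% and 5.24% of all reads in starved WT and 4.31% and 4.23% in starved RA. Rpl3, of the large subunit, stood at 2349 and 2493 against 1675 and 1645 (-0.54), and Rps3, of the small subunit, at 812 and 826 against 696 and 680 (-0.25). Ribosome biogenesis factors were lower in 20 of 30 and higher in 3 (median -0.21). Nop10 was the lowest (-0.59), nucleolin (Ncl) stood at 1291 and 1368 against 1347 and 1341, and Myc, a driver of this program, was higher, at 188 and 200 against 271 and 269 (0.48). Myc was already higher in RA in normal medium (0.37), and its interaction was not called (0.11, adjusted p = 0.14). Heat shock genes were lower in 11 of 20 and higher in 5 (median -0.19, or -0.081 with quantile normalization), with Hspa8 at -0.44, Dnajb1 at -0.64 and Hspb1 at 1.18.

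The other metabolic and stress lists had medians between -0.29 and 0.085. Their counts stand beside 30.8% of all tested genes higher and 32.1% lower. Shares were 28.6% and 39.3% for respiratory chain genes, 30% and 20% for NRF2 genes, and 23.8% and 33.3% for mTORC1 and AMPK genes. Glycolysis genes were higher in 5 of 21 and lower in 9 (median -0.11). The glucose transporter Slc2a1 stood at 175 and 173 in starved WT and at 226 and 225 in starved RA (0.37), whereas Pkm was lower (-0.24), and the bifunctional enzymes Pfkfb4 and Pfkfb3 differed by 1.34 and -0.56. Txnip, a brake on glucose uptake that is switched on by glucose, was low in both starved groups, at 1.26 and 0.987 against 1.998 and 2.35 (0.58), beside 24.9 and 24.5 in normal WT. Normal RA stood at 40.4 and 36.3, a difference of 0.61 in normal medium, and the interaction was not called (-0.03, adjusted p = 0.89). TCA and fatty acid oxidation genes were higher in 9 of 32 and lower in 14, nuclear-encoded respiratory chain genes in 8 and 11 of 28, and mitochondrial-encoded transcripts in 0 and 6 of 13. Proteasome genes were higher in 11 of 31 and lower in 6, NRF2 and antioxidant genes in 6 and 4 of 20, apoptosis regulators in 4 and 5 of 11, and mTORC1 and AMPK genes in 5 and 7 of 21. Clock genes were lower in 10 of 17 and higher in 4, immediate early genes were higher in 6 of 13 and lower in 2, glucose-sensing genes were higher in 1 of 5 and lower in 2, and genes of Pontin's own complexes were higher in 14 of 32 and lower in 7. The glucose-sensing list had the lowest median of these (-0.29, from 5 genes).

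FOXO targets moved both ways, with 12 of 26 higher and 8 lower (median 0.066). These were 46.2% and 30.8%, beside 30.8% and 32.1% of all tested genes. Klf2 stood at 4.57 and 5.85 in starved WT and at 31.4 and 32.2 in starved RA (2.41), and Pdk4, an inhibitor of pyruvate oxidation, at 2.47 and 2.52 against 8.07 and 9.13 (1.45). Klhl24 stood at 77.5 and 75.2 against 23.8 and 25.5 (-1.59) and Ccng2 at 26.6 and 27.3 against 10.9 and 9.29 (-1.34). The FOXO site GTAAACA was in 4 of 22 matched targets, in 3.05% of matched tested genes and in 3.65% of all promoters.

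Among genes with a mean of at least 10 CPM in the starved libraries, 9 of the 10 furthest below starved WT belonged to no list, Klhl24 being the other. Sord, sorbitol dehydrogenase, stood at 94.0 and 93.5 in starved WT and at 26.7 and 29.5 in starved RA (-1.70, adjusted p = 9.7e-13), beside 20.4 and 20.7 in normal WT. Plcxd2 stood at 219 and 207 against 65.8 and 65.7 (-1.68), and the antisense gene Gm15638, within its span, at 195 and 184 against 59.0 and 58.6 (-1.67). How the counting used strand is not given in the sources used here. Whether these genes share reads, and so count as separate differences, is not known. Ero1lb, an oxidase of ER protein folding, stood at 64.8 and 70.4 against 22.5 and 21.8 (-1.57), and Elovl4, a fatty acid elongase, at 22.1 and 22.9 against 6.70 and 7.31 (-1.56). Acrbp, Hid1, Maats1 and Ovgp1 completed the 10 with differences of -1.72, -1.60, -1.60 and -1.59. Acrbp shares 29.8% of its exon bases with Gm44597 and Ovgp1 28.7% with Gm42890, each on the same strand. The starved groups did not overlap in any of the 10, which the choice of genes required.

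Normal medium gave the genotype difference without starvation. RA was higher than WT in 1084 genes (6.68%) and lower in 479 (2.95%), so that 69.4% of calls were higher, a share that fell to 40.5%, 58.5% and 52.6% when the reads were scaled to total reads, by median ratio or by quantiles. Of the 885 genes at least 2-fold higher under starvation, 345 (39.0%) were called higher in normal medium, which were 31.8% of all genes called higher there. Of the 203 at least 2-fold lower, 15 (7.39%) were called lower in normal medium, or 3.13% of those called lower there. The 2 media share no library. Interferon genes were already higher in normal medium in 59 of 68 (median 1.05), and MHC class I genes in 15 of 16 (median 0.70). Ifit3 stood at 80.7 and 84.8 in normal WT and at 334 and 330 in normal RA (1.99, adjusted p = 6.5e-15). By contrast, collagens had 1 gene higher and 5 lower in normal medium, sterol synthesis 0 and 5, mitosis 0 and 2, ER chaperones and ERAD 1 and 6, autophagy 8 and 0, lysosome 22 and 0, and cytosolic ribosomal proteins 25 and 0.

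The interaction test found that RA minus WT was higher under starvation than in normal medium for 3972 genes (24.5%) and lower for 4235 (26.1%). Scaling to total reads turned the majority, with 4648 higher and 3353 lower, and quantiles gave 3459 and 4577. It was called higher for 880 of the 885 and lower for 202 of the 203 genes, counts that share the starved libraries with the choice of genes. By list it was higher for 61 of 68 interferon genes and 29 of 30 mitosis genes, and lower for 48 of 49 ribosomal protein genes and 30 of 40 ER genes. For ribosomal proteins the direction turned, from a median of 0.15 in normal medium to -0.29 under starvation.

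**Figure D5:**
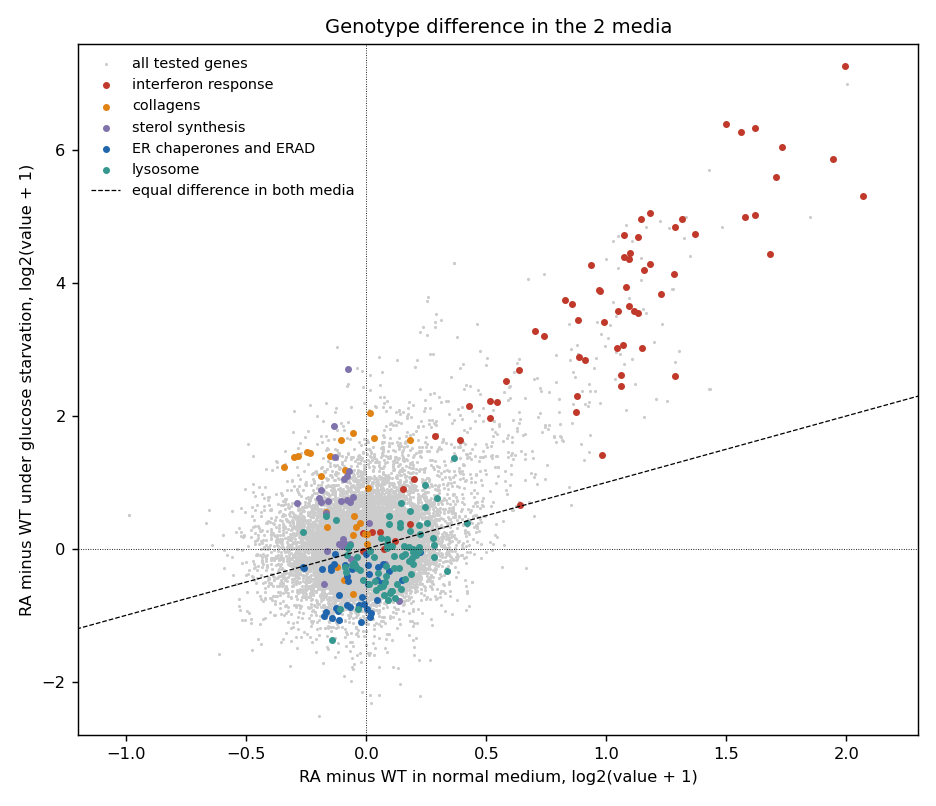
RA minus WT on the log2(CPM + 1) scale in normal medium (x axis) and under glucose starvation (y axis) for all tested genes (grey) and 5 lists (coloured), with a dashed line of equal difference. Interferon genes lie up and to the right (Ifit3 at 1.99 and 7.27), while collagen and sterol genes are higher and ER genes lower under starvation at a difference near 0 in normal medium.

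Recovered reads were 43205841 to 56363034 per library, and in no gene with a mean of at least 10 CPM did the starved WT libraries differ by over 2-fold. In 17 such genes starved RA replicate 2 was over 2-fold above replicate 1, none of them in a list. Fibroblast markers were present for 9 of 10 genes, with Lum at or near 0, and their sum was 3163 to 3238 CPM in starved WT and 4189 to 4201 in starved RA, 8 higher and 1 lower. Leukocyte markers summed to 24.6 to 25.6 and 21.8 to 22.4, with Ptprc and Cd3e at or near 0. Most of that sum was Csf1r, at 19.2 and 20.1 in starved WT and 18.7 and 18.6 in starved RA (not called, adjusted p = 0.41), and Cd68 was lower (-0.74). Smooth muscle markers summed to 1489 to 1544 and 3977 to 4116, and most of that sum was Acta2. Cnn1 was higher (0.55), and Des was at or near 0. Myh11 stood at 1.13 and 0.95 in starved WT and at 1.57 and 1.40 in starved RA (not called, adjusted p = 0.10). Neural markers summed to 74.5 to 78.6 and 166 to 169.6. All 3 neural markers tested were higher, Nes (42.7 and 44.98 against 124 and 119) by 1.45, Tubb3 by 0.92 and Map2 by 0.21, with Sox2 at or near 0. Endothelial, epithelial and adipocyte markers summed to under 10 CPM in every library. The part of these shifts in the results was not tested.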

How the data were processed

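RNA was sequenced from 8 libraries, 2 each of WT and RA cells in normal and glucose-free medium. The submitters' notes name TopHat2 2.0.9, mm9, bedtools and edgeR, and the gene annotation, counter and strand setting are not given in the sources used here. The deposited signal is a CPM value per gene that the authors computed with edgeR on scaled library sizes, so the column sums differ. Dividing by the value of 1 read gave whole reads for 100% of values (within 0.05 reads), 43205841 to 56363034 per library. In the range 1 to 9, 78.2% to 80.5% of these are even. In all, 0 sample columns were left unmapped, and 26 rows whose gene names had become dates stayed as they were. The minus and plus columns were read as normal and starved after the study's own marks.

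Genes with at least 1 CPM in at least 2 libraries were kept. Differences were fitted with limma 3.58.1 (R 4.3.3) on log2(CPM + 1) over all 4 groups with a mean-variance trend, and called at a Benjamini-Hochberg adjusted p under 0.05, without a replicate block. In simulated counts for starved RA against starved WT with 200 of 16232 genes changed 2-fold, 90% were recovered and 8.16% of calls were false. All other simulated means were equal between groups and scaling was to total reads. The data gave 10211 calls on scaled library sizes, so these rates may not hold for them. edgeR 4.0.16 and DESeq2 1.42.0 on recovered reads, other pseudocounts, filters, scalings and each library left out were alternatives. The 36 lists hold 971 genes, of which 933 were tested. Named genes were Ruvbl1, Ruvbl2, the 10 highest and 10 lowest called differences among genes with a mean of at least 10 CPM in the starved libraries and no overlap, and in each list key genes named for their role and the highest and lowest called members. The comparison, lists and genes were chosen with earlier results of these data known, so no list is independent support. Of 16232 tested genes, 10351 matched a promoter by symbol and 96.7% matched GENCODE M21, whose build differs from mm9, so no coordinate of the study's build is given. Values of some single genes of the lists are not reported here.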

Additional observations from a re-analysis of the deposited data

Results flagged for a closer look

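Results were taken up here where the genotype difference under starvation and that in normal medium differed by the interaction test of limma. This held for 3972 genes in the higher direction and 4235 in the lower. All values below are the starved difference minus the normal one, on the log2(CPM + 1) scale. Among interferon genes and chemokines it was 5.28 for Ifit3, 4.90 for Ifit1, 3.67 for Cxcl10 and 3.94 for Ccl2. Matrix, growth factor and contractile genes gave 3.13 for Thbs1, 3.24 for Fgf7, 1.75 for Col1a1, 2.03 for Ankrd1 and 1.34 for Acta2. It was 1.12 for Plk1 and 1.10 for Top2a. Lysosome, autophagy and regulator genes gave -1.23 for Ctns, -0.88 for Mcoln1, -1.19 for Atg14, -0.80 for Ulk1, -1.15 for Flcn and -1.82 for Rragd. ER and ribosomal genes gave -0.89 for Hsp90b1, -1.07 for Calr and -0.67 for Rpl3. Sord and Klhl24 gave -1.68 and -1.79. For Ruvbl1 it was 0.34.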

How the results depend on the processing

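Of 3979 alternative values for 199 genes taken by the naming rule, 3890 kept their direction and side of the threshold, 73 lost the call, 16 gained one and 0 turned. The genotype comparison under starvation (10211 genes) ran from 8850 to 10441 genes with each library left out and gave 10194 by edgeR and 9633 by DESeq2. It gave 3596 genes at an adjusted p under 1e-05 and 1088 at least 2-fold. In normal medium 1563 genes became 141 and 82 by the same limits, 650 without a filter and 590 without a trend. Left-out libraries gave 559 to 1706 there, with 559 and 830 without WT normal replicates 1 and 2 and 939 without RA normal replicate 2. The interaction (8207 genes) gave 1764 and 990 by the stricter limits and 7170 to 7931 with libraries left out. edgeR on halved reads, chosen after seeing that most low counts are even, gave 10250, 1626 and 8086. Where the cause of a change is not the stricter limit itself, the cause was not tested. Quantile normalization moved the median of all starved differences to -0.078. Of 555 alternative values for the medians of the 36 lists and of all genes, 74 moved by more than the spread between replicates. That spread was the SD of 2 medians, each of RA minus WT between same-numbered libraries, so it depends on how the replicates are numbered. Under quantiles the median was -0.081 for heat shock, 0.102 for cell cycle brakes, 0.049 for ATF4 and CHOP and -0.023 for mitochondrial-encoded genes, without a filter 0.391 for growth factors and -0.164 for glucose sensing, without WT starved replicate 2 it was 0.011 for Pontin complexes, 0.169 for cell cycle brakes, -0.057 for mitochondrial-encoded and -0.017 for TCA and fatty acid oxidation genes, and without WT starved replicate 1 it was 0.043 for ATF4 and CHOP and -0.083 for TCA and fatty acid oxidation genes, which gave -0.028 without RA starved replicate 1. The tRNA synthetase median was -0.015 with scaling to total reads. The median's sign turned in at least 1 alternative for FOXO targets, respiratory chain, proteasome, NRF2, immediate early, apoptosis and mTORC1 and AMPK genes. Leaving a group with 1 library assumes that it varies like the others.

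The replicate block gave 10494, 2059 and 8578 genes for the starved, normal and interaction comparisons and changed no count by over 1.5 times. Deviations of same-numbered libraries correlated by 0.0383 between the starved groups and 0.12 between the normal groups (mean of all pairs 0.0659), so the numbers were not taken to pair the samples. Only 2 libraries in each group limit all tests to the spread between them.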
